A study of Homo sapiens with 4 samples.

Results

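Sestrin 3 mRNA (SESN3) was higher after each of the 3 knock-downs than in mock-treated cells, while the mRNAs of 2 forkhead box O (FOXO) factors, FOXO1 and FOXO4, each followed a different pattern. The FOXO1 signal was lower after silencing of OCT4 or SOX2, and the FOXO4 signal was higher after silencing of NANOG. Each gene was read by 1 probe, the probe that carries its name (FOXO1 under its older symbol FOXO1A and FOXO4 under its older symbol MLLT7), so that the account concerns 3 of 47289 probes. These genes were chosen for their signals in the same comparisons with mock, so their values are given as a description, without a test.

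The samples were NCCIT cells, a human embryonic carcinoma (hEC) line derived from a germ cell tumour that keeps an undifferentiated state resembling that of embryonic stem cells. Mock cells received the transfection reagent only. The OCT4, NANOG and SOX2 knock-down groups were transfected with esiRNA, a pool of short interfering RNAs cut enzymatically from a long double-stranded RNA, against the named transcription factor. The sample labels give harvest at day 2.5, whereas the paper's methods give a slightly earlier day and another seeding density. The labels do not say which of the paper's NANOG esiRNA pools was used. Each of the 4 groups was hybridised as 3 biological replicates, 1 per Illumina BeadChip array. All samples came from 1 cell line, and the mock group carried no irrelevant esiRNA.

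FOXO proteins are transcription factors that insulin and growth factor signalling holds in check: AKT phosphorylates them, and 14-3-3 proteins then keep them in the cytoplasm. When active, they bind a common forkhead motif and switch on genes of cell cycle arrest, stress defence, autophagy and metabolism. Sestrins are stress-induced proteins that restrain the growth kinase complex mTORC1 through the GATOR complexes and AMPK, and SESN3 is a known FOXO target in other cell types.

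Because the silenced genes encode DNA-binding factors, the 250 bases before the RefSeq transcription start of each gene (GRCh38.p14) are shown, read 5′ to 3′ on the strand of the gene, with the single motif match in capitals. FOXO1 lies on chromosome 13, minus strand, with this window at chr13:40666642-40666891; FOXO4 lies on chromosome X, plus strand, at chrX:71095601-71095850; SESN3 lies on chromosome 11, minus strand, at chr11:95232476-95232725.
FOXO1: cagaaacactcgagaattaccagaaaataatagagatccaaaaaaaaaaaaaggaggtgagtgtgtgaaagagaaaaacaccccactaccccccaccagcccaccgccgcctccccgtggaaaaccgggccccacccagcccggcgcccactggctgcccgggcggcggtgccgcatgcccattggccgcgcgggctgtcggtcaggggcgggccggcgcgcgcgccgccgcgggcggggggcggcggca
FOXO4: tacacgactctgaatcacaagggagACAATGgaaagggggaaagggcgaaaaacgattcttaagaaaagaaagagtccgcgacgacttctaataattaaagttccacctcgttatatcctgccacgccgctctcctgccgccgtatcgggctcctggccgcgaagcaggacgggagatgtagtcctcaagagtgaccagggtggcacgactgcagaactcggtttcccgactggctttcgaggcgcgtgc
SESN3: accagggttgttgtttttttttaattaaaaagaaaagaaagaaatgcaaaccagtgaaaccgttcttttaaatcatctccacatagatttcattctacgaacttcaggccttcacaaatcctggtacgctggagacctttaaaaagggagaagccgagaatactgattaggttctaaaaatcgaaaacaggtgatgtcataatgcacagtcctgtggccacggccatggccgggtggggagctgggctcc
The 3 windows differed in base composition. FOXO1 had 67.2% G and C with 27 CpG sites, FOXO4 had 54.4% with 21, and SESN3 had 42.8% with 7, while the medians over 35116 such RefSeq windows were 58.0% and 11. Each window was searched on both strands for the FOXO motif GTAAACA, the octamer ATGCAAAT bound by POU factors such as OCT4, and the SOX motif CATTGT. The only match was the SOX motif, reverse complement ACAATG, in the FOXO4 window, beginning 225 bases before the start. Of all windows, 2.98% held the FOXO motif, 1.63% the octamer and 9.29% the SOX motif. The letters of the octamer and the SOX motif can run into each other where CAT ends the one and begins the other. None of the 3 windows held an octamer, so this could not occur in them. A match in so short a window is a description and not evidence of binding, and the lack of a match is not evidence of its absence. From published binding data in human embryonic stem cells, the paper marks FOXO1A as bound by OCT4, NANOG and SOX2.

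Signals were the deposited bead averages in arbitrary units of brightness. For comparison between arrays they were background-corrected, quantile-normalised and put on the log2 scale, and levels below are such normalised log2 values unless called deposited signals. A probe counted as detected on an array where its deposited detection value, its rank among negative controls as a fraction, was at least 0.99. Between 23.7% and 27.2% of probes were detected per array, and replicates within a group correlated across probes at r of 0.993 to 0.997 over the 9899 probes detected everywhere. Arrays of the OCT4 knock-down were the brightest, with summed deposited signals of 17098257 to 19594676 units against 12433029 to 13243568 for mock, so that the scaling between arrays affects every comparison of that group.

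The silenced genes were checked first. The POU5F1 probe (POU5F1 encodes OCT4) gave deposited signals of 610.5, 546 and 536.2 in mock and 151.5, 133 and 118.5 in the OCT4 knock-down, where 1 of 3 arrays still detected it. NANOG gave 342.6, 380.7 and 314.2 in mock and 184.2, 165.6 and 162.1 in the NANOG knock-down, a log2 difference of -1.85. The loss of NANOG was larger after silencing of OCT4, at least 9.34-fold, and of SOX2, at least 8.52-fold, where no array detected it. These lower bounds set mock against the lowest detected signal of each dim array. POU5F1 was also undetected after SOX2 silencing, at least 15.2-fold below mock, but gave 533.3, 492 and 497.9 in the NANOG knock-down. The SOX2 probe was not analysed here, so the SOX2 label has no direct check in these values. The paper reports SOX2 as undetected on its arrays and followed it by real-time PCR and Western blot instead.

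Markers of cell identity differed between the groups as well; their probes, too, were named from the study's list of changed genes. In mock, all 8 named probes of 7 markers of undifferentiated cells were detected, and their summed normalised signal was 19881 to 20765 units. The sum was 4212 to 4848 in the OCT4, 4181 to 4481 in the SOX2 and 12873 to 14052 in the NANOG knock-down. In the same order, 8, 7 and 6 of these probes fell. Mesoderm and smooth muscle markers moved the other way: all 7 named probes rose after silencing of OCT4 or SOX2, with sums of 3736 to 4571 and 4077 to 5082 against 219 to 263 in mock, where 5 of the 7 were undetected. In the NANOG knock-down this sum was 314 to 356 and 1 probe, TAGLN, rose. Of all 2985 named probes, 46.2% were higher and 33.3% lower for OCT4 by the call rule given below. The shares were 44.7% and 31.2% for SOX2, and 14.4% and 11.2% for NANOG. The naming thus favours changed probes, and the marker counts are not independent evidence of a direction. HAND1 and NES rose in all 3 knock-downs. Each was the only named gene of its list, among 8 trophoblast and 5 neural markers. In the paper HAND1 stands among mesoderm markers. CDX2, CSH1, HCG and KRT7 of trophoblast and PAX6, SOX1, OLIG2 and NEUROD1 of ectoderm had insignificant expression on its arrays. LHX5, which the paper also lists under ectoderm, was higher there after silencing of OCT4 or SOX2. By real-time PCR, which it calls more sensitive, the paper found CDX2 and KRT7 transiently induced at its earlier time after OCT4 silencing. The later marker HCG was not significantly induced at its later time. The paper concludes that the OCT4 knock-down did not turn these cells into trophoblast. None of the 6 endoderm markers had a name here. Since RNA came from whole cultures, fewer cells of a type and less RNA per cell cannot be told apart, and the part of these shifts in the values below was not tested.

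**Figure D1:**
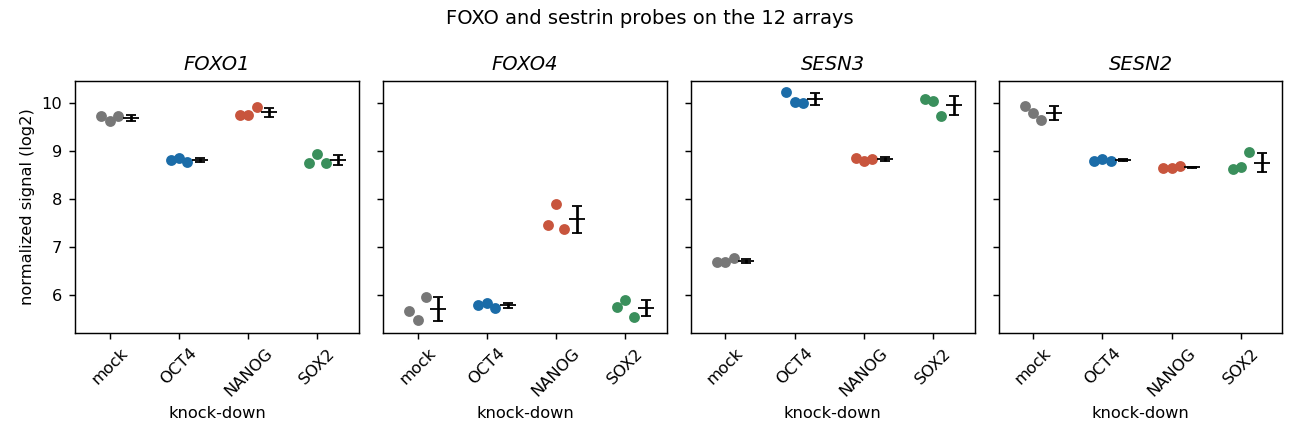
Normalised log2 signal (vertical axis) of the FOXO1, FOXO4, SESN3 and SESN2 probes in mock and the 3 knock-downs (horizontal axis). Points are the 3 arrays of a group in order of replicate, and the bar beside them is mean ± SD. FOXO1 sits near 8.8 after silencing of OCT4 or SOX2, FOXO4 is raised in the NANOG knock-down alone of the groups drawn, SESN3 is lowest in mock, and SESN2 is highest in mock.

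SESN3 covered the widest range of the 3 genes. Its deposited signals were 161.7, 159.9 and 158.1 in mock and 1804.8, 1368.1 and 1324.7 in the OCT4 knock-down. They were 548.6, 492.5 and 472.3 in the NANOG knock-down and 1247, 1119 and 820 in the SOX2 knock-down. Every knock-down array was brighter than every mock array, and the NANOG arrays lay between mock and the other two. The normalised level was 6.72 ± 0.04 (SD, n = 3) in mock, 10.07 ± 0.12 in the OCT4, 8.82 ± 0.04 in the NANOG and 9.94 ± 0.19 in the SOX2 knock-down. The log2 differences from mock were 3.36 for OCT4, 2.11 for NANOG and 3.23 for SOX2, each with an SE of 0.09, which correspond to 10.2-fold, 4.31-fold and 9.36-fold higher signals. The OCT4 and SOX2 levels overlapped, with a difference of -0.13 (SOX2 minus OCT4). The NANOG level was separated from the OCT4 level by -1.25 and from the SOX2 level by -1.12, and its arrays overlapped neither. The mock arrays detected the probe, 61.6 to 66.8 units above the mean of the negative controls.

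FOXO1, which restrains growth downstream of insulin receptors, gave deposited signals of 752.9, 764.6 and 723.1 in mock and 752.7, 678.2 and 627.6 in the OCT4 knock-down. They were 958.4, 888.5 and 898.6 in the NANOG knock-down and 558.2, 570.2 and 466.6 in the SOX2 knock-down. As deposited, OCT4 knock-down and mock arrays overlapped, and the lower FOXO1 level in that group appeared once the brighter OCT4 arrays were brought to a common scale. The normalised level was 9.69 ± 0.06 (SD, n = 3) in mock, 8.81 ± 0.04 in the OCT4, 9.80 ± 0.09 in the NANOG and 8.81 ± 0.10 in the SOX2 knock-down. The log2 differences from mock were -0.88 for OCT4 and -0.88 for SOX2, each with an SE of 0.07, which left 54.4% and 54.2% of the mock signal. The difference for NANOG was 0.11, or 108% of mock, and the highest mock array lay 0.018 below the lowest NANOG array. The OCT4 and SOX2 arrays overlapped each other and lay below those of mock and of the NANOG knock-down. The NANOG difference, with an SE of 0.07, did not pass the call rule given below, so mock and the NANOG knock-down are not ranked. The OCT4 value depended on the scaling: with arrays scaled to a common median instead, it was -0.27 and no longer reached the call rule given below, while the SOX2 value of -0.68 still did.

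FOXO4, a close relative of FOXO1 under the same control by AKT, was dim throughout. Its deposited signals were 126.8, 116.4 and 128 in mock and 178.6, 166.8 and 159 in the OCT4 knock-down. They were 256.9, 300.7 and 220.3 in the NANOG knock-down and 151.9, 153.7 and 133.8 in the SOX2 knock-down. All 12 arrays detected the probe, but in mock it stood 23.3 to 32.8 units above the negative controls. The normalised level was 5.71 ± 0.25 (SD, n = 3) in mock, 5.79 ± 0.05 in the OCT4, 7.58 ± 0.28 in the NANOG and 5.73 ± 0.17 in the SOX2 knock-down. The NANOG level was 1.87 above mock with an SE of 0.15, or 3.66-fold, and all 3 of its arrays lay above the 9 others. The differences from mock were 0.09 for OCT4 and 0.03 for SOX2, and the arrays of mock, OCT4 and SOX2 overlapped. Median scaling put the OCT4 value at 0.61, past the call rule, a setting under which detected probes as a whole moved up by a median of 0.57.

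A probe was called where its signal differed at least 1.5-fold at an adjusted p under 0.01 (limma, Benjamini-Hochberg adjustment over all 47289 probes). By this rule 2 of the 3 genes were called in each comparison: FOXO1 and SESN3 for OCT4, FOXO4 and SESN3 for NANOG, and FOXO1 and SESN3 for SOX2. Of all probes, 6.35% were called for OCT4, 2.08% for NANOG and 6.11% for SOX2. Of the 12374 probes detected on all arrays of a group, the shares were 23.3%, 7.66% and 22.7%. The comparisons share their mock arrays and the genes were chosen by them, so nothing is read from these counts. The share of all probes whose groups do not overlap was not counted, so a lack of overlap is likewise only a description.

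**Figure D2:**
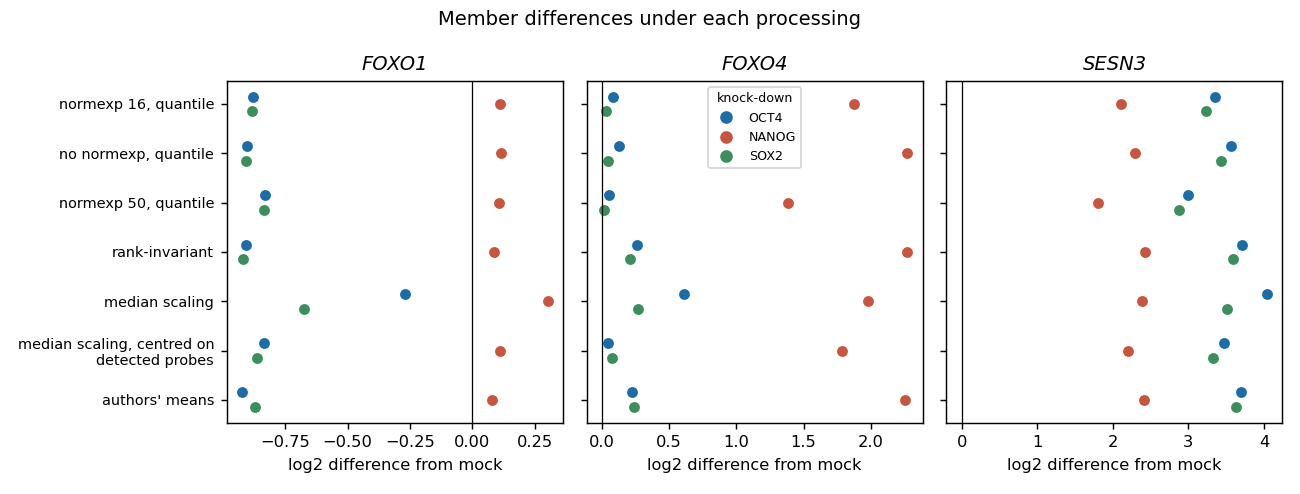
Log2 difference from mock (horizontal axis, 1 panel per gene, each with its own scale) of FOXO1, FOXO4 and SESN3 under 7 ways of processing the arrays (vertical axis). Each point is 1 knock-down. The SESN3 points of the OCT4 knock-down range from 3.0 to 4.04, and its FOXO1 point moves from -0.88 to -0.27 under median scaling.

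The 3 genes were compared with each other over the 12 arrays only as patterns. Pearson's r was -0.77 between FOXO1 and SESN3, 0.61 between FOXO1 and FOXO4 and 0.01 between FOXO4 and SESN3. These values rest on 4 group means with 3 arrays each and are given as a description. FOXO1 and SESN3 thus ran opposite in the OCT4 and SOX2 knock-downs, whereas in the NANOG knock-down SESN3 was 2.11 above mock with FOXO1 at 0.11.

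The probes whose pattern was most like that of each gene were sought among those that varied by at least 1 on the log2 scale between group means and were detected on every array of a group. Closest to SESN3 were LOC145786 (r = 0.997), NMNAT2 (0.997), an NAD-synthesising enzyme, EFHD1 (0.996), a calcium-binding protein, TP53INP1 (0.995), a p53-inducible stress protein, and HAND1 (0.995), a transcription factor of trophoblast and heart. Closest to FOXO1 were LOC256394 (0.991), the transcription factor BCL11A (0.99), LOC256085 (0.99), PROM1 (0.988), a membrane glycoprotein of stem cells, and TRIM22 (0.987), an interferon-induced protein. Closest to FOXO4 were BICD1 (0.976), a dynein adaptor, LOC374765 (0.975), TMEM131L (0.972), SOBP (0.968) and LITAF (0.968). The FOXO1 pattern was common, with 169 of 1782 such probes above r = 0.95. SESN3 had 106 of 1781 and FOXO4 had 17 of 1781. Likeness was Pearson's r over the 12 arrays, and many probes share the group differences that shape it.

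**Figure D3:**
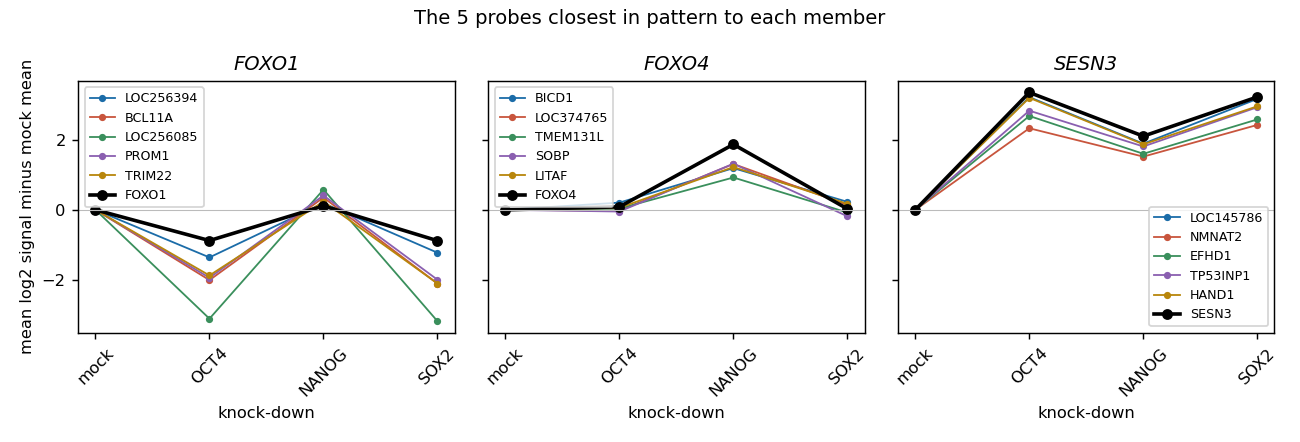
Mean normalised log2 signal minus the mock mean (vertical axis) in each group (horizontal axis) for FOXO1, FOXO4 and SESN3 (thick black lines) and the 5 probes closest to each in pattern (thin lines). The FOXO1 neighbours dip in the OCT4 and SOX2 knock-downs, the FOXO4 neighbours rise in the NANOG knock-down, and the SESN3 neighbours are above mock in all 3 knock-downs.

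Other genes of the pathway were drawn from 6 lists of 132 genes, of which 31 had a probe with a name here. Names were available only for probes that the study had listed as changed after OCT4 or NANOG silencing in these same samples, so the counts are not independent evidence of a direction. Adjusted p-values are given only for comparisons that had not named the gene, and even these share the mock arrays with the comparison that did. Many are SOX2 values of genes named through OCT4, and the paper describes these knock-downs as nearly equivalent. A SOX2 call was thus likely from the naming alone, and its p-value is not independent evidence of a change. Of the 31 probes, 26 (83.9%) were called for OCT4, 10 (32.3%) for NANOG and 25 (80.6%) for SOX2. Among all 2985 named probes the shares were close to these, at 79.5%, 25.6% and 75.9%. By direction, 20 of the 31 were higher and 6 lower for OCT4, 7 and 3 for NANOG, and 19 and 6 for SOX2. Of all named probes, 46.2% were higher and 33.3% lower for OCT4, 14.4% and 11.2% for NANOG, and 44.7% and 31.2% for SOX2. The median log2 difference of all named probes was 0.52 for OCT4, 0.04 for NANOG and 0.49 for SOX2.

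SESN2, the sestrin best known as a target of p53 and of nutrient stress, was the 1 named relative outside the chosen genes. Probes of FOXO3, FOXO6 and SESN1 were not analysed here. SESN2 gave deposited signals of 855, 840.5 and 691.2 in mock, 748, 667.9 and 632.8 in the OCT4, 483, 456.7 and 429.3 in the NANOG and 520.4, 496.7 and 532.7 in the SOX2 knock-down. Its normalised level was 9.78 ± 0.14 (SD, n = 3) in mock, 8.80 ± 0.02 in the OCT4, 8.66 ± 0.02 in the NANOG and 8.76 ± 0.19 in the SOX2 knock-down. All mock arrays lay above all knock-down arrays on this scale, the reverse of SESN3. SESN2 fell by 1.13 on the log2 scale after NANOG silencing (limma adjusted p = 1.16e-05) and by 1.03 after SOX2 silencing (adjusted p = 5.36e-06), each with an SE of 0.09. For OCT4, the comparison that named the gene, the value was -0.98. That value was -0.37 under median scaling, not called, where detected probes moved up by 0.57, and -0.94 once this shift was taken off. No difference between knock-downs passed the test, with log2 differences of -0.15 (NANOG minus OCT4, adjusted p = 0.476), -0.10 (NANOG minus SOX2, adjusted p = 0.688) and -0.05 (SOX2 minus OCT4, adjusted p = 0.97).

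Upstream of FOXO, 6 of 22 genes of insulin receptor, PI3K and AKT signalling were named. For OCT4 4 rose and 0 fell, for SOX2 4 rose and 0 fell, and for NANOG 1 rose. Among all named probes, 46.2%, 44.7% and 14.4% were higher in that order, and 33.3%, 31.2% and 11.2% lower. The median log2 difference of the 6 was 0.79 for OCT4, 0.87 for SOX2 and 0.18 for NANOG. IRS1, the adaptor between insulin receptor and PI3K, was undetected in mock and in the NANOG knock-down and was at least 2.41-fold higher after OCT4 and at least 2.29-fold higher after SOX2 silencing (limma adjusted p = 1.44e-08 for SOX2). PIK3CD, a catalytic subunit of PI3K, was 1.92 above mock on the log2 scale for OCT4 and rose by 2.15 for SOX2 (adjusted p = 8.44e-10). For NANOG its value was -0.50 (adjusted p = 0.00199), short of 1.5-fold.

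Of the kinases that phosphorylate FOXO proteins, SGK1 was 0.98 above mock for OCT4, rose by 1.15 for SOX2 (limma adjusted p = 2.39e-07) and had a value of 0.26 for NANOG (adjusted p = 0.0688). AKT1 rose by 0.60 for SOX2 (adjusted p = 0.00388), just past 1.5-fold, a call lost without mock replicate 1 (0.53) or SOX2 replicate 2 or 3 (0.58 each), and its OCT4 value of 0.56 stood just short (0.64 and called without OCT4 replicate 3). The OCT4 value of PIK3CA, another PI3K subunit, was 0.61, a call lost without mock replicate 1 or OCT4 replicate 1 (0.54 each). INPPL1, a phosphatase that removes the lipid made by PI3K, was the 1 gene of the list called for NANOG, at 0.76, with values of 0.03 for OCT4 (adjusted p = 0.924) and 0.09 for SOX2 (adjusted p = 0.77).

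Among 25 genes whose products modify or bind FOXO proteins, 3 were named. SFN, the 14-3-3 sigma protein, was detected on 1 of 3 mock arrays and stood 1.55 above mock for OCT4, with a rise of 1.57 for SOX2 (limma adjusted p = 3.37e-05). USP7, a deubiquitinase of FOXO4, was 0.88 below mock for OCT4 and fell by 0.73 for SOX2 (adjusted p = 1.2e-05). SIRT1, a deacetylase of FOXO factors, was 0.69 below mock for OCT4 and fell by 0.74 for SOX2 (adjusted p = 0.00062). None of the 3 was called for NANOG, with values of -0.48 for SFN (adjusted p = 0.165), -0.46 for USP7 (adjusted p = 0.00198) and -0.23 for SIRT1 (adjusted p = 0.379).

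**Figure D4:**
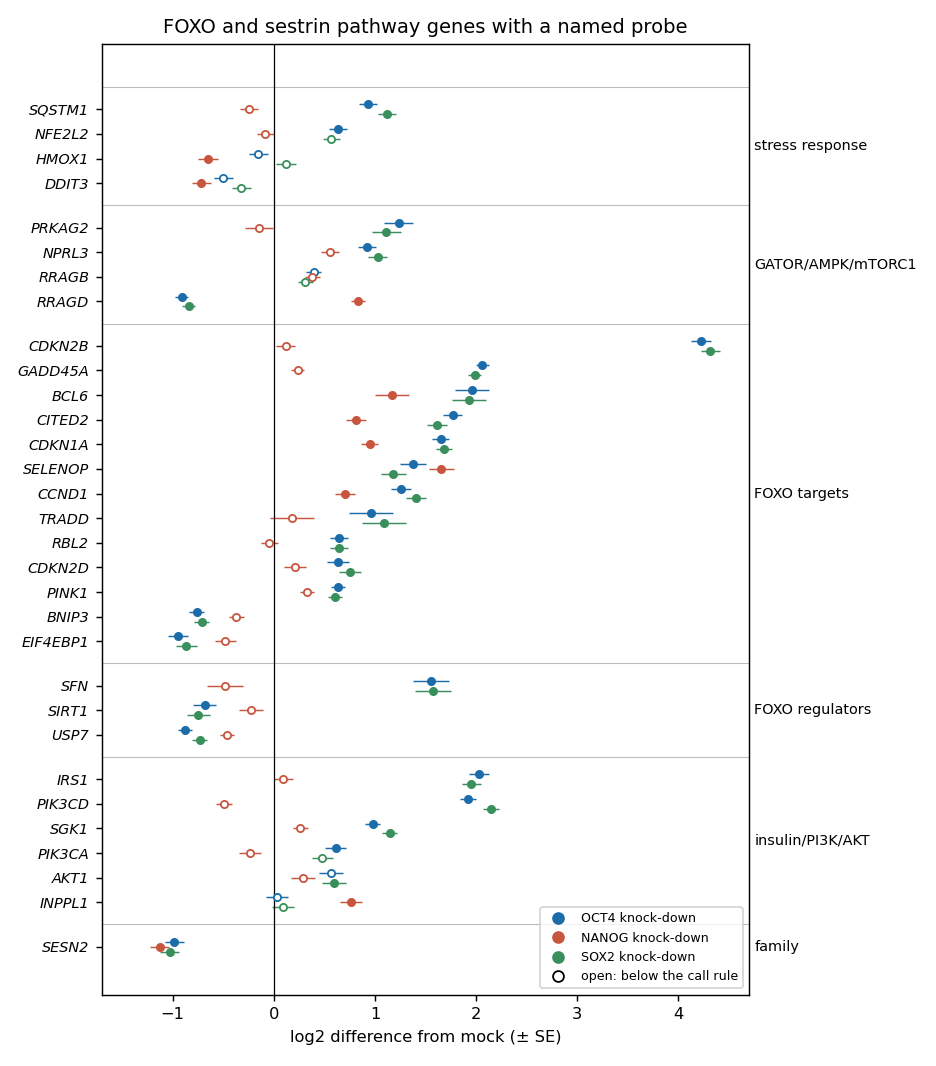
Log2 difference from mock with its SE (horizontal axis) of the 31 named genes of the FOXO and sestrin lists (vertical axis, grouped by list). Colours are the 3 knock-downs, filled points passed the call rule and open points did not. The OCT4 and SOX2 points lie near each other for most genes, and CDKN2B stands farthest to the right.

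Of 40 genes known as FOXO targets in other systems, 13 were named. For OCT4 11 were higher and 2 lower, for SOX2 11 were higher and 2 lower, and for NANOG 5 were higher and 8 were not called. The median log2 difference was 1.26, 1.18 and 0.24 in that order. With a normexp offset of 50, the counts of higher genes were 8 for OCT4 and 8 for SOX2. Among all named probes, 46.2% were higher and 33.3% lower for OCT4, 44.7% and 31.2% for SOX2, and 14.4% and 11.2% for NANOG. The 13 were named from the list of changed genes, so nothing about FOXO activity is read from these counts. CDKN2B (p15), a cell cycle inhibitor, was undetected in mock and the NANOG knock-down and was at least 10.4-fold higher for OCT4 and at least 11-fold higher for SOX2 (limma adjusted p = 1.37e-11). CDKN1A (p21), another such inhibitor, was 1.65 above mock on the log2 scale for OCT4 and 0.95 for NANOG, and rose by 1.68 for SOX2 (adjusted p = 1.15e-08). GADD45A, a sensor of DNA damage and stress, was 2.06 above mock for OCT4 and rose by 1.99 for SOX2 (adjusted p = 4.24e-10), with a value of 0.24 for NANOG (adjusted p = 0.0632).

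Some targets were called in all 3 knock-downs, as SESN3 was. BCL6, a transcriptional repressor detected on 1 of 3 mock arrays, was 1.96 above mock for OCT4, 1.17 for NANOG and 1.93 for SOX2 (limma adjusted p = 3.25e-06 for SOX2). CITED2, a transcriptional coregulator, was 1.77, 0.82 and 1.61 above mock in that order (adjusted p = 1.05e-07 for SOX2). SELENOP, a selenium transport protein, was 1.38, 1.66 and 1.18 above mock (adjusted p = 2.09e-05 for SOX2). CCND1 encodes cyclin D1, a gene that FOXO factors repress in other cells, and it was likewise higher, by 1.26, 0.71 and 1.40 (adjusted p = 4.25e-07 for SOX2).

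TRADD, an adaptor of death receptors, was undetected in mock and was at least 1.52-fold higher for OCT4 and at least 1.66-fold higher for SOX2 (limma adjusted p = 0.00365). The OCT4 call of TRADD was lost on leaving out any mock or OCT4 array, NANOG replicate 1 or SOX2 replicate 1 or 3, with log2 values of 0.75 to 1.10. Its SOX2 call was lost without mock replicate 2 (0.88) or SOX2 replicate 1 (0.98) or 3 (1.01). The 2 lower genes were EIF4EBP1, a translation inhibitor controlled by mTORC1, and BNIP3, a mitochondrial autophagy receptor, both named here after their values were seen. EIF4EBP1 was 0.95 below mock for OCT4 and fell by 0.86 for SOX2 (adjusted p = 5.05e-05), and BNIP3 was 0.76 below mock for OCT4 and fell by 0.71 for SOX2 (adjusted p = 1.68e-05). The 3 remaining targets, likewise named after their values were seen, were called for OCT4 and SOX2 by small margins. The cell cycle inhibitor CDKN2D (p19) was 0.64 above mock for OCT4 and rose by 0.76 for SOX2 (adjusted p = 0.000264), RBL2, a relative of the retinoblastoma protein, was 0.64 above mock for OCT4 and rose by 0.64 for SOX2 (adjusted p = 0.000141), and PINK1, a mitochondrial kinase, was 0.63 above mock for OCT4 and rose by 0.61 for SOX2 (adjusted p = 3.26e-05). Both PINK1 calls were lost without mock replicate 3 (0.58 and 0.55). For NANOG, none was called, with values of 0.21 for CDKN2D (adjusted p = 0.378), -0.04 for RBL2 (adjusted p = 0.888) and 0.33 for PINK1 (adjusted p = 0.0121).

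Downstream of sestrins, 4 of 27 genes of the GATOR complexes, AMPK and mTORC1 were named. For OCT4 2 were higher and 1 lower, for SOX2 2 were higher and 1 lower, and for NANOG 1 was higher. Among all named probes, 46.2%, 44.7% and 14.4% were higher in that order, and 33.3%, 31.2% and 11.2% lower. NPRL3, a subunit of the GATOR1 brake on mTORC1, was 0.92 above mock for OCT4 and rose by 1.02 for SOX2 (limma adjusted p = 3.6e-06). Its NANOG value of 0.55 stood just short of 1.5-fold, and it was called at 0.72 under rank-invariant and at 0.80 under median scaling. PRKAG2, a regulatory subunit of AMPK undetected in mock, was at least 1.56-fold higher for OCT4 and at least 1.43-fold higher for SOX2 (adjusted p = 9.94e-05). RRAGD, one of the Rag GTPases that bring mTORC1 to the lysosome, moved in both directions: it was 0.91 below mock for OCT4 and 0.83 above mock for NANOG, and fell by 0.84 for SOX2 (adjusted p = 1.19e-06). RRAGB, another Rag GTPase, was not called in any of the 3 comparisons, with values of 0.39 for OCT4, 0.38 for NANOG (adjusted p = 0.00883) and 0.31 for SOX2 (adjusted p = 0.0128).

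Of 16 genes of the stress response around sestrins, 4 were named. SQSTM1 (p62), an autophagy receptor that binds KEAP1, was 0.93 above mock for OCT4 and rose by 1.12 for SOX2 (limma adjusted p = 1.44e-06). NFE2L2 (NRF2), the main activator of antioxidant genes, was 0.64 above mock for OCT4 and had a value of 0.57 for SOX2 (adjusted p = 0.000395), just short of 1.5-fold but called without mock replicate 2 (0.60) or SOX2 replicate 3 (0.65). In the NANOG knock-down DDIT3, a factor of the unfolded protein response, was 0.72 below mock and HMOX1, a haem-degrading NRF2 target, was 0.65 below mock, a call that HMOX1 lost without NANOG replicate 1 (-0.57). Neither was called for OCT4 or SOX2, with values of -0.50 and -0.32 for DDIT3 (adjusted p = 0.0021 and 0.0365; -0.59 for OCT4, and called, without OCT4 replicate 3) and -0.15 and 0.12 for HMOX1 (adjusted p = 0.41 and 0.605).

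Median scaling, under which detected probes moved up, ended 12 calls of the lists, all lower, and added 8, all higher. Those added were INPPL1 (0.66), AKT1 (1.25) and RRAGB (1.13) for OCT4, NPRL3 (0.80) and RRAGB (0.62) for NANOG, and PIK3CA (0.75), RRAGB (0.67) and NFE2L2 (0.76) for SOX2. Thus 6 of the 6 insulin and PI3K genes were called for OCT4, and 3 of the 4 GATOR and AMPK genes for NANOG. All 6 genes of the lists that were lower for OCT4 (SESN2, USP7, SIRT1, EIF4EBP1, BNIP3 and RRAGD) lost the call, with values from -0.39 for EIF4EBP1 to -0.07 for SIRT1. For SOX2, SESN2 and EIF4EBP1 kept it and the other 4 lost it. For NANOG, SESN2 kept it and DDIT3 and HMOX1 lost it.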

How the data were processed

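RNA from mock-treated NCCIT cells and 3 knock-downs was hybridised by the authors to Illumina human-6 or human-8 BeadChips as biological triplicates, and signals were extracted with BeadStudio 1.0. The deposited array tables hold an intensity per probe, the bead average before background subtraction and normalisation, and a detection fraction. A further deposited table holds 1 intensity per probe and group, the authors' mean after background subtraction and rescaling. Each group is 1 deposited sample with 3 array files, whose numbers served as replicates.

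From the array intensities, 4 control probes were left out. Background was corrected with limma 3.58.1 (R 4.3.3; normexp from the detection values, offset 16), followed by quantile normalisation and log2. A linear model with empirical Bayes moderation was fitted over all 12 arrays. The spread of 3 arrays per group limits the precision. The model was tested on simulated data.

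Probe names came from the readable part of the study's list of changed genes, of which 2985 probes were matched (symbols updated through RefSeq where possible). Genes, lists and the motifs were chosen with earlier results of these data known. Named were the chosen genes, their family, up to 8 called genes per list by size, the silenced genes, and the 5 probes closest in pattern. Alternatives covered background, offset, scaling, a filter on dim probes, each array left out, a replicate block, the methods' t-test and the call rule. Chip was not given in the file headers, so no chip block was run. Probe positions within transcripts were not analysed here. One gene was left out of the lists and is not reported here.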

Additional observations from a re-analysis of the deposited data

How the results depend on the processing

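No called result changed sign, and every called value of FOXO1, FOXO4 and SESN3 stayed past 1.5-fold on leaving out any of the 12 arrays. Without normexp, the log2 differences from mock of SESN3 were 3.57 (OCT4), 2.29 (NANOG) and 3.44 (SOX2), and that of FOXO4 for NANOG was 2.27. With an offset of 50 they were 3.0, 1.81 and 2.87, and 1.38, and calls for NANOG were 316 higher and 276 lower against 524 and 459. Rank-invariant scaling gave SESN3 3.71, 2.42 and 3.58 and FOXO4 2.27 for NANOG. The authors' group means gave SESN3 3.69, 2.41 and 3.63 and FOXO4 2.25. Median scaling gave SESN3 4.04, 2.38 and 3.52, FOXO1 -0.27, 0.30 and -0.68, and FOXO4 0.61 for OCT4. It called 5959 higher and 335 lower for OCT4 (94.7% higher against 56.2%), 992 and 216 for NANOG (82.1% against 53.3%) and 2560 and 611 for SOX2 (80.7% against 56%), where medians of detected probes were 0.57, 0.19 and 0.19. With these medians taken off, an alternative chosen after seeing the data, FOXO1 was -0.84, 0.11 and -0.87, FOXO4 was 0.04, 1.79 and 0.08, and SESN3 was 3.48, 2.19 and 3.33. The cause of the shifts was not tested.

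The methods' t-test at its own threshold called 1556 higher and 1233 lower for OCT4, 458 and 405 for NANOG and 1461 and 1160 for SOX2. After Benjamini-Hochberg adjustment it called 721 and 588, 22 and 24, and 632 and 483. An adjusted p under 0.05 with no minimum fold called 3293 and 3537, 1442 and 1458, and 2959 and 3216, against 1688 and 1316, 524 and 459, and 1618 and 1272.

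Leaving out single arrays gave FOXO1 -0.91 to -0.86 (OCT4), 0.06 to 0.14 (NANOG) and -0.94 to -0.85 (SOX2). FOXO4 was -0.03 to 0.22 for OCT4 and -0.09 to 0.16 for SOX2, both uncalled and lowest without mock replicate 2, and 1.71 to 2.02 for NANOG. SESN3 was 3.29 to 3.4, 2.08 to 2.13 and 3.16 to 3.35. Of the 31 list genes, 7 crossed the threshold in some comparison, TRADD most often. An offset of 50 ended 8 list calls (PIK3CA, RBL2, TRADD and CDKN2D for OCT4; AKT1, PINK1, RBL2 and CDKN2D for SOX2), no normexp ended 2 (TRADD for OCT4, AKT1 for SOX2), and rank-invariant scaling added 3 (AKT1 and RRAGB for OCT4, NPRL3 for NANOG). A replicate block cannot change group differences in this balanced layout, so it bears only on their spread. It gave 1651 higher and 1292 lower calls for OCT4, 498 and 426 for NANOG and 1588 and 1251 for SOX2. Pairing by the replicate numbers was not shown, and 3 arrays per group cannot exclude it. Of 18 same-numbered pairs, 4 correlated above 0.1 (range -0.43 to 0.44), and 3 of 12 arrays correlated best with their own number. The low FOXO4 signal in mock over background limits the precision of its fold.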
